A study of Mus musculus with 6 samples.

Results

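The heat shock proteins and J-domain chaperones are the genes whose symbols begin with Hspa, Hspb, Hspd, Hspe, Hsp90, Hsph1, Dnaja, Dnajb or Dnajc and a number. Each was read through the brightest array probe annotated to it and to no other gene. By this rule 70 of the 19938 genes on the array were members, and 55 of the 70 had a mean log2 signal of at least 5 over the arrays and were tested. Hspa1b matched the name but has no probe of its own, and it is not counted. The genes were compared in whole livers of C57Bl6/J mice excised within 1 day of birth, whose mothers had eaten 1 of 3 isocaloric diets with 6 g% of oil. The oil was soybean oil for the Control group, flaxseed oil for the ALA group, named for its predominant alpha-linolenic acid (31.6%, an omega-3 fatty acid), and coconut oil for the SFA group, named for its saturated fatty acids (48.51%). Each diet had 2 arrays (replicates 1 and 2), and each array carried RNA from a pool of 3 livers. It is not stated that the 2 pools of a diet held different animals. The 2 Control pools differed in the Y-linked gene Eif2s3y (3.63 and 7.95), so they did not hold the same 3 livers. A p-value reflects only the spread between the samples at hand, which may be technical within ALA and within SFA.

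Molecular chaperones bind proteins that are not yet folded or have come unfolded. Small heat shock proteins hold such proteins without using ATP. J-domain proteins deliver them to Hsp70 and start its ATP cycle, the Hsp110 relatives let Hsp70 release its nucleotide, and Hsp90 with its co-chaperones finishes selected clients such as steroid receptors and kinases. Hsp60 and Hsp10 form a folding chamber in the mitochondrion. Many cytosolic members are induced by heat shock factors, which bind inverted repeats of GAA called heat shock elements. The chaperones of the endoplasmic reticulum (ER), where hepatocytes fold the plasma proteins they secrete, are induced by the unfolded protein response through the ER stress response element.

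Heat shock elements can be read in the promoter of Hspb1, the member with the largest difference, and in those of members that did not pass the test, and ER stress response elements in those of 3 ER members that did not pass it. The 250 bases before the annotated start are printed 5′ to 3′ on the gene's strand for Hspb1, for the heat-inducible Hspa1a, for the mitochondrial genes Hspd1 and Hspe1, and for the ER genes Hspa5, Hsp90b1 and Dnajc3. The sequences are RefSeq's, assembly GRCm38.p6. Capitals mark matches to a heat shock element of 2 units (GAANNTTC or TTCNNGAA) or 3 units (GAANNTTCNNGAA or TTCNNGAANNTTC), or to the ER stress response element (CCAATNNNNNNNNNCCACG), each on either strand. Every match to 3 units also contains a match to 2 units.
Hspb1, chr5:135887669-135887918, plus strand: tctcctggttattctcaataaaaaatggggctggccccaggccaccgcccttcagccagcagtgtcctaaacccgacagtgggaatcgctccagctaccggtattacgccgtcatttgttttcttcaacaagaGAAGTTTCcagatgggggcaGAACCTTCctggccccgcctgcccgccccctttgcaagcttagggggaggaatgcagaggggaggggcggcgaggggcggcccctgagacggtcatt
Hspa1a, chr17:34972157-34972406, minus strand: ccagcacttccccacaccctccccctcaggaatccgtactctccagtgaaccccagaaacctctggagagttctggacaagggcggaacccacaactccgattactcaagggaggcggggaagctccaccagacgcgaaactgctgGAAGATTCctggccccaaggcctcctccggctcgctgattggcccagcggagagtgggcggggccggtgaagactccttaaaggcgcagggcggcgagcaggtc
Hspd1, chr1:55087933-55088182, minus strand: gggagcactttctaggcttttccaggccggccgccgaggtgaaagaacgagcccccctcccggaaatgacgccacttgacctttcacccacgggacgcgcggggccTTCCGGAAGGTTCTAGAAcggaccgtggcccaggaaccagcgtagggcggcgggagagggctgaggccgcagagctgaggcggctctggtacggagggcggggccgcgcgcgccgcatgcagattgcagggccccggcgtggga
Hspe1, chr1:55087898-55088147, plus strand: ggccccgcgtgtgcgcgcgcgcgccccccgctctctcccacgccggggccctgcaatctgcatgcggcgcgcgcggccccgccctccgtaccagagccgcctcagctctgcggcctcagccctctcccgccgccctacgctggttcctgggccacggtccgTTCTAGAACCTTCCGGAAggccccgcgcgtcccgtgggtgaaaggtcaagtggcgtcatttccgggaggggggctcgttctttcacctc
Hspa5, chr2:34771840-34772089, plus strand: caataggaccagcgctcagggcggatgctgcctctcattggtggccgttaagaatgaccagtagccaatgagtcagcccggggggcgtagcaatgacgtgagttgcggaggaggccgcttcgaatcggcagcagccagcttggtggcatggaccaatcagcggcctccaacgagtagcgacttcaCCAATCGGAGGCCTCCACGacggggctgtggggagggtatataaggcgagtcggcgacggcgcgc
Hsp90b1, chr10:86705445-86705694, minus strand: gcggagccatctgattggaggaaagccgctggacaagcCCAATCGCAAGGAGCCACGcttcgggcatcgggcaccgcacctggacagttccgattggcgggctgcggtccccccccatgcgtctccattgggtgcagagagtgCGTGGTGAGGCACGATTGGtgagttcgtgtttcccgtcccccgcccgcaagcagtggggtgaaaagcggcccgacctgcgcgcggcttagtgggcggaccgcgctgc
Dnajc3, chr14:118937682-118937931, plus strand: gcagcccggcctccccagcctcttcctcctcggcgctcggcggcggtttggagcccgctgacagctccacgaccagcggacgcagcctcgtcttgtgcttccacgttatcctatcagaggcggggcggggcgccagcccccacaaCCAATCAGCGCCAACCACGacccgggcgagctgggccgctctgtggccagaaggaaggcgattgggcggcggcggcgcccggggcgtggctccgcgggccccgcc

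Hspb1 held 2 matches of 2 units, which began 117 and 97 bases before its start. Hspd1 has a second annotated start, whose window (chr1:55088194-55088493) held no match and is not printed. Hspd1 and Hspe1 are neighbours that are transcribed away from each other, and their windows overlap. The capitals in both are the same stretch of DNA read on opposite strands, and it holds 2 overlapping matches of 3 units. In windows that ran from 250 bases before to 50 bases after a start, the element of 2 units occurred in 17 of 74 windows of 57 members found in RefSeq's table (23%), against 15.1% of all 32851 windows. The element of 3 units occurred in 6 of the 74 (8.11%, against 0.603%), in Dnajb6, Hspd1, Hspe1 and Hsph1. Dnajb6 and Hsph1 each counted in 2 overlapping windows that held the same match. Counted by gene, it occurred in 4 of 57 members (7.02%, against 0.662% of all genes). The ER stress response element occurred in 3 of the 74 windows (4.05%, against 0.119%), in Hspa5, Hsp90b1 and Dnajc3. The windows of Dnajb2 and Dnajc9, which are described below, held none of these letters. A match is a description of the sequence and was not tested as a binding site.

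Some properties of the arrays bear on every comparison. Duplicate arrays correlated across the tested genes with r of 0.977 (Control), 0.978 (ALA) and 0.986 (SFA), where genes are not independent replicates. The mean log2 signal of 6 measured hepatocyte markers was between 12.0 and 12.2 on every array, and 4 germ cell and 4 ciliated cell markers lay between 3.38 and 3.92 on average. Markers of dividing cells averaged 4.74 and 4.87 on the Control arrays, 6.03 and 7.32 on the ALA arrays and 7.55 and 7.46 on the SFA arrays. The averages of macrophage, endothelial, stellate and erythroid markers were also higher on all 4 ALA and SFA arrays than on both Control arrays. In whole liver, fewer cells of a type and less RNA per cell cannot be told apart. The pools differed in sex-linked signal. Xist, the RNA that silences an X chromosome, was at 10.67 and 8.34 in Control, 3.76 and 4.24 in ALA and 9.46 and 9.51 in SFA, and the Y-linked Eif2s3y was at 3.63 and 7.95, 7.74 and 7.80, and 4.11 and 3.79. Both ALA pools had Y-linked signal without Xist, and both SFA pools had the reverse. For every gene, diet and the sex of the pools therefore cannot be told apart between ALA and SFA. Both diets are compared with the same 2 Control arrays.

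Few members changed, and among them Hspb1 had the largest difference in both diets. Against Control, 4 of 55 tested members passed an adjusted p of 0.05 in ALA livers (7.27%), where 7.93% of all tested genes passed. In SFA livers 4 of 55 passed (7.27%), where 13.8% of all tested genes passed. Between ALA and SFA 0 of 55 passed, where 1.53% of all tested genes passed, and limma gave an unadjusted p below 0.05 for 11 members (20%, against 22.4% of all genes). The F test over Control, ALA and SFA called 5 of 55 members (9.09%, against 13.5%). An unadjusted p below 0.05 was found for 12 members in ALA (21.8%, against 24.7% of all genes) and 13 in SFA (23.6%, against 31.9%). The members' shares were near the background or below it. Arrays did not overlap with Control for 6 members that were higher and 19 that were lower in ALA, where 27.0% and 28.0% of all genes did so, and for 13 higher and 16 lower in SFA, where 28.6% and 35.7% did. The median difference of the members was -0.10 in ALA and -0.05 in SFA, beside -0.01 and -0.05 over all tested genes. Hspb1, Dnajb2 and Dnajc12 fell in both, Dnajc30 rose in ALA, and Dnajc9 rose in SFA. Without Control replicate 2, the array with both Xist and Y-linked signal, Hspb1 was the only member called in either comparison. The same was so without either SFA array, so this loss of calls was not particular to Control replicate 2.

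**Figure D1:**
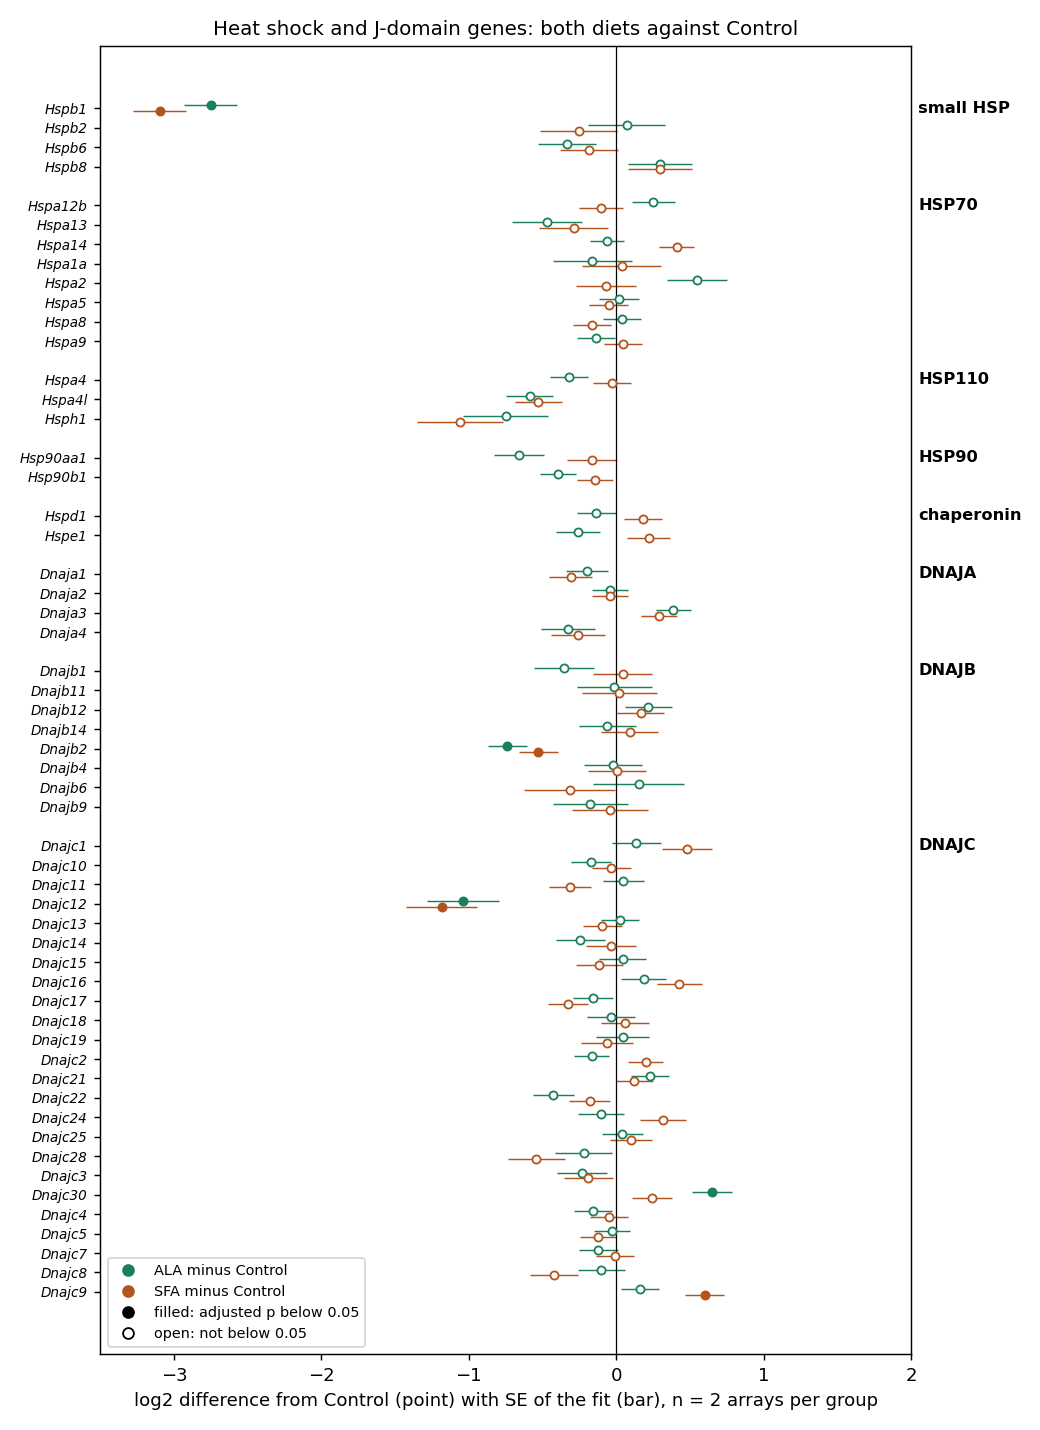
Log2 difference from Control (horizontal axis) of each of the 55 tested members, grouped by family, for ALA (green) and SFA (orange). Points are means of 2 arrays minus 2 arrays, bars are the standard errors of the fit, and filled points passed an adjusted p of 0.05; Hspb1 stands alone at -2.75 and -3.10, and most members lie within 0.5 of 0.

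Hspb1 encodes Hsp25, the mouse form of Hsp27, which binds unfolding proteins and actin. Its log2 signal was 8.68 and 8.60 on the Control arrays, 6.11 and 5.66 on the ALA arrays and 5.41 and 5.67 on the SFA arrays. Both Control arrays lay far above all 4 others, and the ALA and SFA arrays overlapped. Hspb1 fell by 2.75 in ALA livers (SE 0.18, n = 2 arrays per group, limma adjusted p = 0.00239) and by 3.10 in SFA livers (SE 0.18, adjusted p = 0.000774), or 6.74-fold and 8.57-fold. ALA and SFA arrays differed by 0.35, with a 95% interval from -0.08 to 0.77 (adjusted p = 0.300; intervals here and below are not adjusted for the number of genes). The second probe of the gene read 8.70 and 8.57, 6.24 and 5.65, and 5.43 and 5.46, and its differences were -2.69 and -3.19. Without Control replicate 2 the differences were -2.79 (adjusted p = 0.0134) and -3.14 (adjusted p = 0.00994), the latter between arrays that all lack Y-linked signal. Under the 15 alternative settings the difference stayed between -2.98 and -2.53 in ALA and between -3.23 and -2.97 in SFA, and it passed the threshold in each. On average, markers of dividing, macrophage, endothelial, stellate and erythroid cells were higher on the arrays where Hspb1 was lower. Averages of the germ cell and ciliated cell markers stayed between 3.38 and 3.92. The part of the cell types in the Hspb1 difference was not tested.

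The other small heat shock proteins did not follow Hspb1. Hspb8, which works with Bag3 in clearing aggregates, was at 8.88 and 9.21, 9.64 and 9.04, and 9.40 and 9.27 on the Control, ALA and SFA arrays, and its difference was 0.30 in both comparisons (adjusted p = 0.457 and 0.388). Hspb6, a form enriched in muscle, differed by -0.33 and -0.19, and Hspb2, another muscle form, by 0.07 and -0.26, with adjusted p from 0.353 to 0.895. Markers of striated and smooth muscle averaged 4.57 to 4.89 on every array. Of the 5 tested, 1 rose in each comparison, where 5.11% and 6.62% of all tested genes rose. It was the smooth muscle marker Myh11, by 0.895 in ALA and 0.954 in SFA (limma adjusted p = 0.0142 and 0.0092). Hspb3, Hspb7, Hspb9 and Hspb11 were under the signal minimum.

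**Figure D2:**
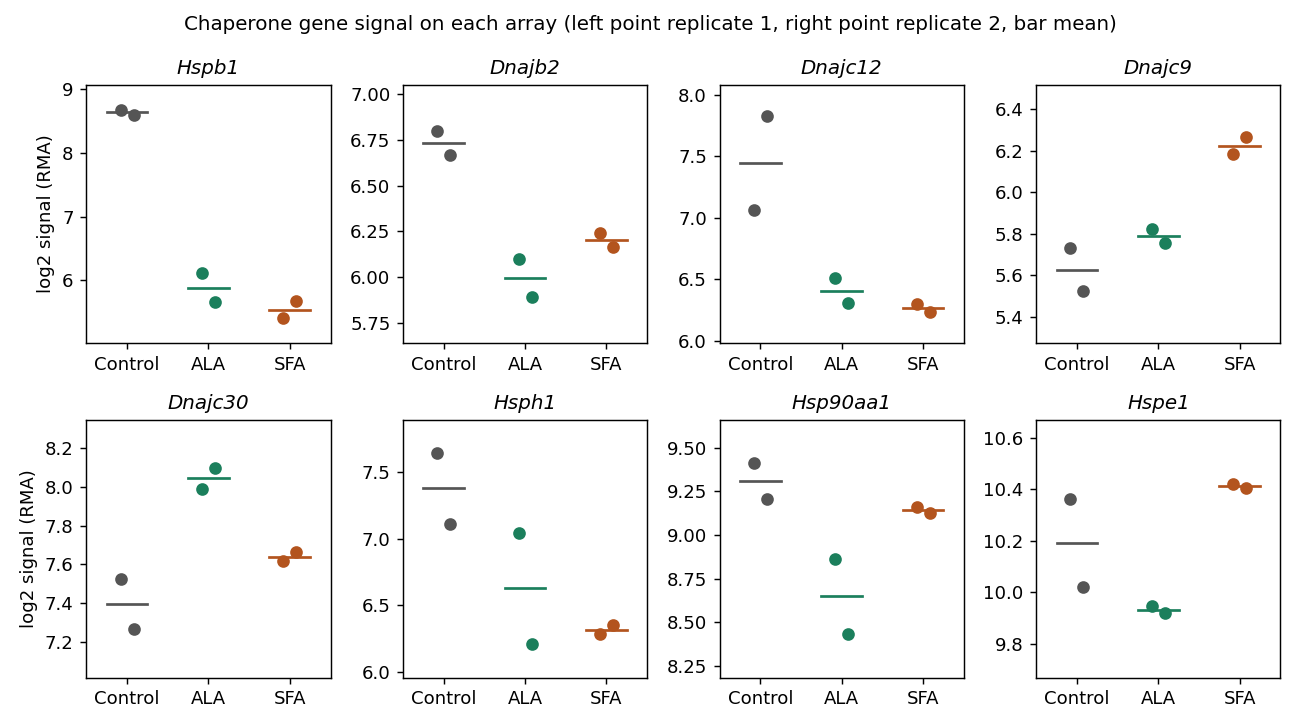
Log2 signal (vertical axis, a separate range for each gene) of 8 members on each of the 6 arrays, with replicate 1 left, replicate 2 right and a bar at the mean of the diet. The Hspb1 values of Control (8.68 and 8.60) lie far above those of ALA and SFA, while Hspe1 and Hsp90aa1 show smaller differences between diets.

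Of the Hsp70 proteins themselves, 0 of 8 tested members were called in either comparison with Control by limma. An unadjusted p below 0.05 was found for 1 member in each, where 24.7% and 31.9% of all tested genes had one. Hspa8, the constitutive cytosolic form, was at 11.65 and 11.57 in Control, 11.76 and 11.54 in ALA and 11.46 and 11.44 in SFA. Its differences were 0.04 (95% interval -0.27 to 0.34) and -0.16 (-0.47 to 0.14). Hspa1a, the heat-inducible form, was at 5.69 and 5.51, 5.89 and 5.00, and 5.58 and 5.70, so that the ALA duplicates spanned both other diets. Its differences were -0.16 (95% interval -0.80 to 0.47) and 0.04 (-0.60 to 0.67). Hspa1a and Hspa1b are near-identical, and whether the Hspa1a probe also reads Hspa1b was not tested. Hspa9, the mitochondrial form mortalin, was at 10.76 and 10.70, 10.48 and 10.70, and 10.80 and 10.75, with differences of -0.14 and 0.05 (adjusted p = 0.558 and 0.833). Hspa14, a form that works at the ribosome, had the lowest p of any member between ALA and SFA and was named after its values were seen. It was at 6.18 and 6.16 in Control, 6.08 and 6.14 in ALA and 6.60 and 6.55 in SFA. Its differences were 0.41 for SFA against Control (adjusted p = 0.0606) and -0.47 for ALA against SFA (95% interval -0.75 to -0.20, adjusted p = 0.0901).

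The Hsp110 relatives, the nucleotide exchange factors of Hsp70, all had negative differences, and none passed the test. The median of the 3 was -0.59 in ALA and -0.53 in SFA, with unadjusted p below 0.05 for 3 members in ALA and 2 in SFA. Of all tested genes 24.7% had such a p in ALA and 31.9% in SFA. Hsph1, which encodes Hsp105, was at 7.64 and 7.11 in Control, 7.04 and 6.20 in ALA and 6.28 and 6.35 in SFA. Every ALA and SFA value lay under both Control values, although ALA replicate 1 came within reach of Control replicate 2. The differences were -0.75 (SE 0.29, adjusted p = 0.166) and -1.06 (SE 0.29, adjusted p = 0.0541). The SFA value passed the threshold with either ALA array left out of the fit (adjusted p = 0.0305), with the replicate number as a block (adjusted p = 0.0370), with a minimum signal of 6 (adjusted p = 0.0456) and with a variance trend and robust prior (adjusted p = 0.0491), and missed it with any Control or SFA array left out. Hspa4l was at 6.88 and 6.50, 6.14 and 6.06, and 6.10 and 6.23, with differences of -0.59 (adjusted p = 0.0695) and -0.53 (adjusted p = 0.0698). Hspa4 differed by -0.32 in ALA (adjusted p = 0.185) and by -0.03 in SFA.

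Hsp90 signal was lower in ALA than in Control on both arrays for both measured forms, without passing the test. Hsp90aa1, the inducible cytosolic form, was at 9.41 and 9.21 in Control, 8.86 and 8.43 in ALA and 9.16 and 9.13 in SFA. The ALA arrays were the 2 lowest. The difference was -0.66 in ALA (SE 0.17, 95% interval -1.06 to -0.26, adjusted p = 0.0628) and -0.16 in SFA (adjusted p = 0.548). It was -0.68 and -0.53 at the other probes of the gene in ALA. Without ALA replicate 1 the ALA difference was -0.88 and passed the threshold (adjusted p = 0.0468). It also passed with a mean log2 signal of at least 6 as the minimum (adjusted p = 0.0455) and with a variance trend and robust prior (adjusted p = 0.0271). Hsp90b1, the ER form Grp94, was at 10.79 and 10.91, 10.50 and 10.41, and 10.71 and 10.71. Its differences were -0.40 (adjusted p = 0.0938, and 0.0265 with a variance trend and robust prior) and -0.15 (adjusted p = 0.447). Hsp90ab1, the constitutive cytosolic form, is not reported here.

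At their brightest probes, the mean signals of the mitochondrial chaperonin genes lay on opposite sides of Control in the 2 diets, without passing the test. Hspe1, which encodes Hsp10, was at 10.36 and 10.02 in Control, 9.95 and 9.92 in ALA and 10.42 and 10.40 in SFA. Both ALA values were under and both SFA values over the Control values. Hspd1, which encodes Hsp60, was at 10.06 and 9.84, 9.86 and 9.78, and 10.13 and 10.14, where ALA and Control overlapped. ALA minus SFA was -0.48 for Hspe1 (95% interval -0.82 to -0.13, adjusted p = 0.127) and -0.32 for Hspd1 (-0.62 to -0.01, adjusted p = 0.213). Neither gene passed against Control, where the differences at these probes lay between -0.26 and 0.22. The second probe of Hspe1 read 10.05 and 9.74, 9.76 and 9.89, and 10.20 and 10.15, with differences of -0.08 and 0.28, and its ALA values lay within the Control values. That of Hspd1 read 8.999 and 9.041, 9.023 and 8.588, and 9.479 and 9.499, with differences of -0.21 and 0.47. The stretch of promoter capitalised above is the one these 2 genes share. At the brightest probes, 3 of 55 members had both ALA arrays and both SFA arrays on opposite sides of Control (Hspe1, Hspa14 and Dnajc2; 5.45%), and 5.98% of all tested genes did.

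The J-domain proteins, which were most of the tested members, supplied 4 of the 5 members called by the F test. That test called 9.09% of the tested members and 13.5% of all tested genes. Of 4 DNAJA, 8 DNAJB and 24 DNAJC genes tested, 0, 1 and 2 were called in ALA livers and 0, 1 and 2 in SFA livers. Genes that rose were 5.11% of all tested genes in ALA and 6.62% in SFA, and genes that fell 2.82% and 7.15%. Each of these 4 lost its call with at least 1 array left out.

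Dnajb2 is a J-domain protein enriched in neurons that directs clients of Hsp70 to the proteasome. Its signal was 6.80 and 6.67 in Control, 6.10 and 5.89 in ALA and 6.24 and 6.17 in SFA, with both Control arrays above the other 4. It fell by 0.74 in ALA (SE 0.13, adjusted p = 0.0231) and by 0.53 in SFA (SE 0.13, adjusted p = 0.0437). Leaving out single arrays ended both calls. For ALA the adjusted p was then 0.0939 (Control replicate 1 left out), 0.0755 (Control replicate 2), 0.0899 (ALA replicate 2) and 0.0519 (either SFA array). For SFA it was 0.159 and 0.116 (Control replicates 1 and 2) and 0.138 and 0.174 (SFA replicates 1 and 2).

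Dnajc12 is the co-chaperone of the aromatic amino acid hydroxylases, among them the phenylalanine hydroxylase of the liver. It was at 7.06 and 7.83 in Control, 6.51 and 6.30 in ALA and 6.29 and 6.23 in SFA. The Control duplicates were further apart than the lower of them was from ALA replicate 1, and no values overlapped. Dnajc12 fell by 1.04 in ALA (SE 0.24, adjusted p = 0.0470) and by 1.18 in SFA (SE 0.24, adjusted p = 0.0251). Without Control replicate 2 the differences were -0.65 (adjusted p = 0.120) and -0.80 (adjusted p = 0.0666), and without Control replicate 1 they were -1.43 (adjusted p = 0.0140) and -1.57 (adjusted p = 0.0102). Leaving out ALA replicate 1 (adjusted p = 0.111), ALA replicate 2 (0.186) or either SFA array (0.0864) ended the ALA call, and leaving out SFA replicate 1 (0.101) or 2 (0.115) ended the SFA call.

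Dnajc30, a J-domain protein of mitochondria, was at 7.53 and 7.27 in Control, 7.99 and 8.10 in ALA and 7.62 and 7.66 in SFA. The ALA arrays were highest, and the SFA arrays lay just above Control. It rose by 0.65 in ALA (SE 0.14, adjusted p = 0.0361), and its SFA difference was 0.24 (adjusted p = 0.269). ALA minus SFA was 0.41 (95% interval 0.08 to 0.73, adjusted p = 0.152). Leaving out any single array ended the ALA call, with adjusted p of 0.0529 and 0.150 (Control replicates 1 and 2), 0.0822 and 0.131 (ALA replicates 1 and 2) and 0.0713 (either SFA array).

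Dnajc9, which encodes a chaperone of newly made histones, was at 5.73 and 5.52 in Control, 5.82 and 5.76 in ALA and 6.18 and 6.27 in SFA. It rose by 0.60 in SFA (SE 0.13, adjusted p = 0.0296), and its ALA difference was 0.16 (adjusted p = 0.495). ALA minus SFA was -0.44 (95% interval -0.74 to -0.13, adjusted p = 0.123). Leaving out Control replicate 1 (adjusted p = 0.0540) or 2 (0.134), or SFA replicate 1 (0.104) or 2 (0.136), ended the call. Of 6 tested markers of dividing cells, 4 rose in ALA and 6 in SFA, where 5.11% and 6.62% of all tested genes rose. Mki67, one of these markers, was at 4.77 and 4.82 in Control, 6.87 and 7.81 in ALA and 7.89 and 7.97 in SFA. The markers' part in the Dnajc9 difference was not tested.

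The classical partners of Hsp70 did not pass the test. Dnajb1, the heat-inducible Hsp40, was at 6.13 and 5.88 in Control, 5.93 and 5.37 in ALA and 6.09 and 6.01 in SFA, with differences of -0.35 (adjusted p = 0.335) and 0.04 (adjusted p = 0.901). Dnaja1 was at 9.39 and 9.40, 9.36 and 9.04, and 9.10 and 9.07, and its differences were -0.20 (adjusted p = 0.456) and -0.31 (adjusted p = 0.189). The second probe of Dnaja1 differed by 0.27 in ALA, in the other direction. Dnaja3, a mitochondrial form, was at 8.50 and 8.63, 8.96 and 8.95, and 8.85 and 8.86, and was named after its values were seen. All 4 ALA and SFA values were above Control, with differences of 0.39 (adjusted p = 0.0967) and 0.29 (adjusted p = 0.148).

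Further J-domain genes had an unadjusted p below 0.05 in 1 comparison without passing the adjusted threshold, and they were named for that. Dnajc22 was at 8.32 and 8.44 in Control, 7.94 and 7.97 in ALA and 8.34 and 8.07 in SFA, and its ALA difference was -0.43 (adjusted p = 0.112). Dnajc1, an ER membrane form, was at 6.09 and 6.37, 6.50 and 6.23, and 6.60 and 6.82, and its SFA difference was 0.48 (adjusted p = 0.101). Both SFA arrays lay above all others, and ALA overlapped with Control.

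Dnajc16, another ER membrane form, had an SFA difference of 0.43 (adjusted p = 0.109). Dnajc8, which associates with the spliceosome, was at 6.02 and 6.38 in Control, 6.04 and 6.17 in ALA and 5.88 and 5.68 in SFA, and its SFA difference was -0.42 (adjusted p = 0.126). Dnajc28 differed by -0.54 in SFA (adjusted p = 0.108) and the nuclear Dnajc17 by -0.33 (adjusted p = 0.149). These SFA differences ran in both directions.

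Between ALA and SFA, Dnajc2, which binds nascent chains at the ribosome together with Hspa14, was at 5.71 and 5.76 in Control, 5.59 and 5.56 in ALA and 6.00 and 5.88 in SFA. The difference was -0.37 (95% interval -0.65 to -0.08, adjusted p = 0.142), in the same direction as that of Hspa14. Dnajc24, which acts in diphthamide synthesis, differed by -0.42 (adjusted p = 0.173) and Dnajc11, a mitochondrial form linked to cristae, by 0.36 (adjusted p = 0.191). Hspa2, an Hsp70 enriched in testis, was at 5.43 and 5.17 in Control, 6.08 and 5.62 in ALA and 5.06 and 5.41 in SFA, and ALA minus SFA was 0.61 (adjusted p = 0.145). The ALA arrays were the 2 highest for Hspa2, and they were also the arrays without Xist signal. Between ALA and SFA, diet and the sex of the pools cannot be told apart. Hspa12b, a divergent Hsp70 of endothelium, differed by 0.36 (adjusted p = 0.216), and endothelial markers averaged 8.55 and 8.41 in ALA and 8.20 and 8.16 in SFA. Their part in it was not tested.

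By compartment, the called members lay in the cytosol and nucleus and in the mitochondrion. Of 27 tested cytosolic or nuclear members 0 rose and 3 fell in ALA, and 1 rose and 3 fell in SFA. Of all tested genes 5.11% rose and 2.82% fell in ALA, and 6.62% rose and 7.15% fell in SFA. The median difference of these members was -0.15 and -0.16. Of 8 mitochondrial members 1 rose in ALA and none was called in SFA, where limma gave an unadjusted p below 0.05 for 1. Their median was 0.04 and 0.11. Of the 14 ER members limma called 0 in either comparison, with an unadjusted p below 0.05 for 1 in ALA and 2 in SFA, where 24.7% and 31.9% of all tested genes had one. The ER median was -0.05 in ALA and -0.01 in SFA, and the SFA value turned to 0.03 under both quantile normalization and cyclic loess. In SFA the median of the Hsp70 family turned from -0.06 to 0.02 under quantile normalization, and that of the DNAJC family from -0.04 to 2e-04 under cyclic loess.

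**Figure D3:**
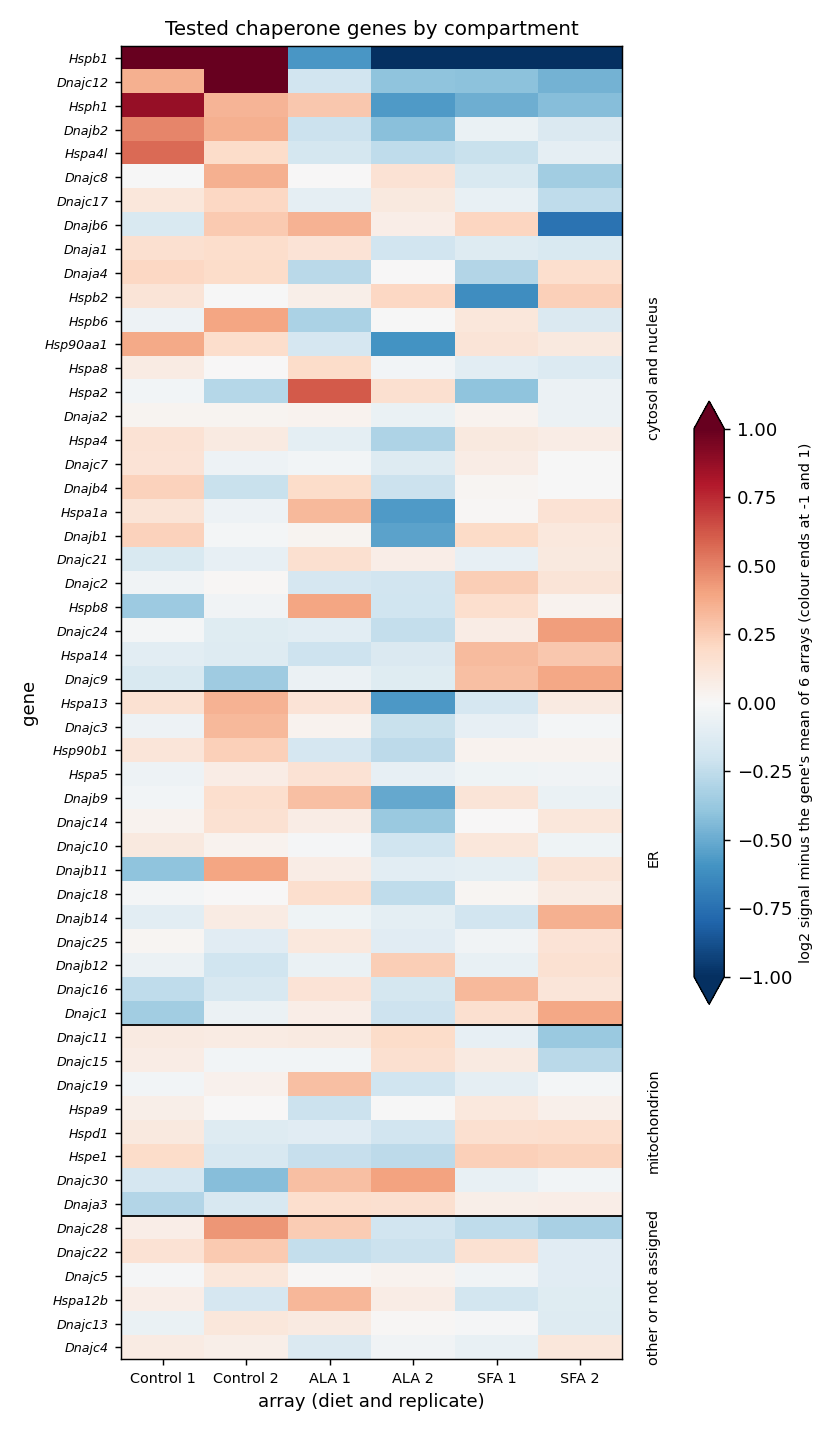
Log2 signal of each tested member minus its own mean over the 6 arrays (colour, ending at -1 and 1), with arrays in columns and genes in rows by compartment. Hspb1, Dnajc12 and Dnajb2 are red on both Control arrays and blue on the other 4. Among the ER rows, Hsp90b1 is lowest on both ALA arrays and Dnajc1 highest on both SFA arrays, and no ER member passed the test.

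Other ER chaperones did not pass the test either, whether their promoter window held an ER stress response element (Hspa5 and Dnajc3) or not (Dnajb9 and Dnajb11). Hspa5, the ER Hsp70 known as BiP, was at 10.62 and 10.75 in Control, 10.82 and 10.59 in ALA and 10.63 and 10.64 in SFA, with all 3 diets overlapping. Its differences were 0.02 (95% interval -0.30 to 0.33) and -0.05 (-0.37 to 0.26). Dnajc3, which is induced by ER stress and works with BiP, was at 9.43 and 9.81, 9.52 and 9.26, and 9.40 and 9.46, with differences of -0.23 (adjusted p = 0.450) and -0.19 (adjusted p = 0.477). Dnajb9, a target of the stress factor Xbp1, was at 8.67 and 8.86, 8.99 and 8.18, and 8.82 and 8.62, and differed by -0.18 and -0.04. Its lowest and highest values were both on ALA arrays. Dnajb11, another partner of BiP, was at 7.28 and 8.09, 7.76 and 7.58, and 7.59 and 7.82, and differed by -0.01 and 0.02. Its lowest and highest values were both on Control arrays.

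The duplicates of the ALA diet differed over most members in 1 direction. ALA replicate 1 was above replicate 2 for 41 of 55 members (74.5%), against 56.0% of all tested genes, with a median gap of 0.18 against 0.04. In Control the count was 29 of 55 (52.7%, all genes 52.2%) and in SFA 28 of 55 (50.9%, all genes 57.1%). The ALA gap was 0.89 for Hspa1a, 0.84 for Hsph1, 0.81 for Dnajb9, 0.71 for Hspa13, 0.60 for Hspb8 and 0.56 for Dnajb1. Hspa1a, Hsph1 and Dnajb1 are heat-inducible, Dnajb9 is induced by ER stress, and these genes were named after their values were seen. The markers of dividing cells differed between the same arrays in the other direction, at 6.03 and 7.32. The part of the pools' makeup in this gap was not tested.

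**Figure D4:**
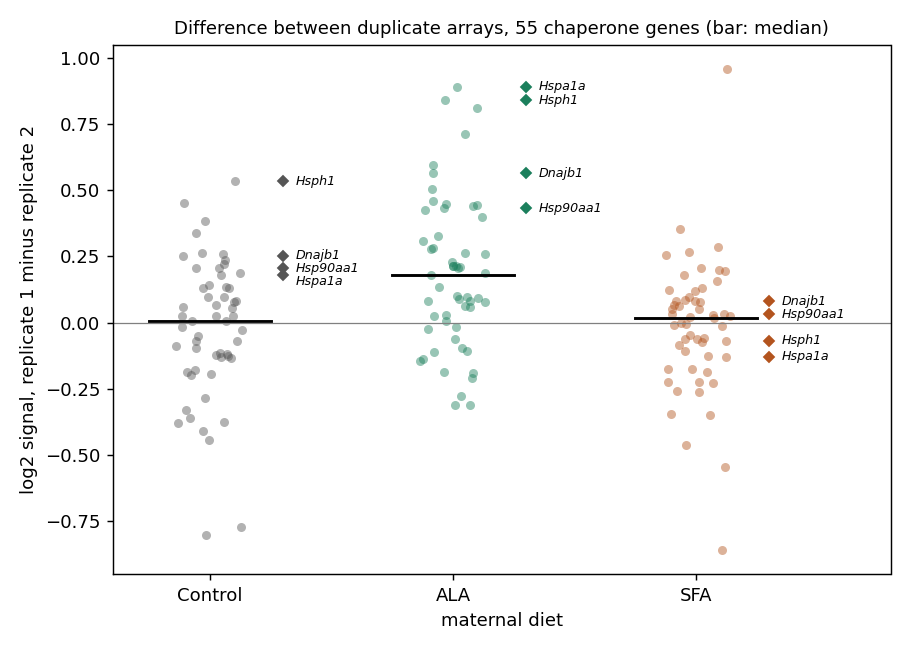
Replicate 1 minus replicate 2 (vertical axis, log2) for the 55 tested members in each diet, with a bar at the median and 4 members drawn again as labelled diamonds. The ALA points are shifted upward (median 0.18) and reach 0.89 for Hspa1a, while the Control and SFA medians are near 0.

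Genes that work beside these chaperones were read from lists that were chosen with earlier results of these data known. Of 25 tested co-chaperones of Hsp70 and Hsp90, 1 rose and 1 fell in ALA, and 1 rose and 2 fell in SFA, where 7.93% and 13.8% of all tested genes were called. Fkbp5, the glucocorticoid-induced immunophilin of Hsp90, was at 7.02 and 6.74 in Control, 8.74 and 8.61 in ALA and 7.88 and 7.72 in SFA. It rose by 1.80 in ALA (SE 0.15, adjusted p = 0.00282) and by 0.92 in SFA (adjusted p = 0.0121), and was higher in ALA than in SFA by 0.88 (adjusted p = 0.0431). With any single array left out it kept the ALA call, lost the call against SFA (adjusted p from 0.0727 to 0.210; 0.0635 with the replicate block), and lost the SFA call without Control replicate 2 or either SFA array (up to 0.0776). Ptges3, which encodes the Hsp90 co-chaperone p23, fell by 0.62 in ALA (adjusted p = 0.0492). In SFA the Hsp90 activator gene Ahsa2 fell by 0.67 (adjusted p = 0.0280) and Bag4, a regulator of Hsp70, by 0.53 (adjusted p = 0.0357). Ptges3 lost its call with any array left out (adjusted p up to 0.192), and Ahsa2 and Bag4 with any Control or SFA array left out (up to 0.136 and 0.160). The list median was -0.16 in ALA and -0.04 in SFA. Of the 14 genes of the cytosolic chaperonin CCT and prefoldin, limma called 0 in either comparison. An unadjusted p below 0.05 was found for 0 in ALA and 1 in SFA, against 24.7% and 31.9% of all tested genes.

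Among 12 tested heat shock factors and other heat-inducible genes, 2 rose and 1 fell in ALA, and 3 rose and 2 fell in SFA, against the same 7.93% and 13.8% called. Hsf2, a heat shock factor gene, was at 8.11 and 7.83 in Control, 7.25 and 7.32 in ALA and 7.38 and 7.47 in SFA. It fell by 0.68 (adjusted p = 0.0326) and 0.54 (adjusted p = 0.0449). Hmox1, the heme oxygenase that degrades heme, rose by 1.18 (adjusted p = 0.00520) and 1.30 (adjusted p = 0.00320). Serpinh1, the collagen chaperone Hsp47, rose by 0.74 (adjusted p = 0.0471) and 0.77 (adjusted p = 0.0321). Cryab, a small heat shock protein outside the naming rule, rose by 0.75 in SFA (adjusted p = 0.0426). The 2 calls of Hmox1 held with each array left out. Those of Hsf2 were lost with any array left out (adjusted p up to 0.124 and 0.180), that of Serpinh1 in ALA with any Control or ALA array (up to 0.187), that in SFA with any array but SFA replicate 2 (up to 0.141), and that of Cryab with any but Control replicate 1 (up to 0.186). Collagen and macrophage genes are among the markers that were higher in both diets, and their part in the Serpinh1 and Hmox1 differences was not tested. Of 30 genes of ER folding and the unfolded protein response, limma called 0 in ALA (5 at an unadjusted p below 0.05), and 2 fell in SFA. Of all tested genes 24.7% had an unadjusted p below 0.05 in ALA, and 7.15% fell in SFA. The 2 that fell were Ddit3, the stress factor CHOP, by 0.65 (adjusted p = 0.0321), and Ern1, the stress sensor IRE1, by 0.69 (adjusted p = 0.0457). Both calls were lost with any Control or SFA array left out (adjusted p up to 0.147 and 0.187). The list median was -0.16 in ALA and -0.23 in SFA.

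Of 18 mitochondrial import and folding partners limma called 0 in ALA (3 at an unadjusted p below 0.05) and 1 in SFA. Of all tested genes 7.93% were called in ALA (24.7% at an unadjusted p below 0.05) and 13.8% in SFA. Clpx, the unfolding subunit of a mitochondrial protease, was at 8.77 and 8.52 in Control, 8.36 and 8.24 in ALA and 9.21 and 9.24 in SFA. It rose by 0.58 in SFA (adjusted p = 0.0362) and was lower in ALA than in SFA by 0.93 (adjusted p = 0.0393). The SFA call was lost with any Control or SFA array left out (adjusted p up to 0.154), and the call between ALA and SFA with any array left out (from 0.0625 to 0.191) and with the replicate block (0.0635). The Clpx values lay on opposite sides of Control in the 2 diets, as did those of Hspe1 at its brightest probe but not at its second probe. Of all tested genes 5.98% had this pattern. Of the 2 cold-inducible RNA-binding genes, Rbm3 rose by 0.52 in ALA (adjusted p = 0.0476), a call that was lost with any array left out. The other, Cirbp, differed by 0.39 in ALA (adjusted p = 0.539). Of all tested genes 5.11% rose in ALA. Clock genes also differed, and several of them swing over the day together with heat shock genes in liver. In each comparison with Control 8 of 13 were called, where 7.93% of all tested genes were called in ALA and 13.8% in SFA. In ALA 7 rose and 1 fell, and in SFA 2 rose and 6 fell, and 2 and 5 of the 8 calls held with each array left out. The 2 ALA calls that held were those of Cry1 and Nr1d1, and each gene went the same way in both diets. The differences in ALA and SFA were 1.29 and 1.07 for Cry1 and -1.31 and -1.16 for Nr1d1. Per2, whose ALA call did not hold, went opposite ways. It was at 6.96 and 6.92 in Control, 7.79 and 7.63 in ALA and 5.96 and 5.58 in SFA. The time of collection is not given in the labels, and its part in the chaperone differences was not tested.

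The 15 members under the signal minimum were Dnajb3, Dnajb5, Dnajb7, Dnajb8, Dnajb13, Dnajc5b, Dnajc5g, Dnajc6, Dnajc27, Hspa1l, Hspa12a, Hspb3, Hspb7, Hspb9 and Hspb11. Several of them are known from testis, muscle, neurons or cilia. Their mean log2 signal ran from 3.06 for Dnajb7 to 4.93 for Dnajb8, and they were tested only in the setting with no filter on dim probes, where limma called none of them.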

How the data were processed

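Total RNA from 6 pools of mouse liver, 2 for each maternal diet, was hybridised to Affymetrix arrays. The authors deposited 1 table of log2 values. The submitters' processing notes name RMA, a background correction, normalization and probe summary, and the software Partek 6.6. The log base was read from the range of the values. As usually run, RMA gives the arrays like distributions, so differences are relative to the other genes. The platform annotation gave the gene symbols, which were looked up by Entrez identifier in RefSeq's GRCm38.p6: of 35556 probes, 21789 had 1 symbol, 1621 several and 12146 none, and 21698 were matched. Probe positions were not used, so reading of near-identical copies was not tested.

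The brightest of a gene's probes represented it, and 10977 genes with a mean of at least 5 were fitted with limma 3.58.1 in R 4.3.3 (a mean per diet, 3 residual degrees of freedom, default empirical Bayes). P-values are two-sided and adjusted by Benjamini-Hochberg over all tested genes, with 0.05 as threshold. The fit was tested on simulated data. With 2 arrays per group, the number of arrays limits the precision. Alternatives were signal minimum, scaling, probe choice, variance prior, samples in the fit, the replicate number as a block and each array left out.

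Members, gene lists and tests were chosen with earlier results of these data known. Named genes were called members, 17 fixed chaperone genes (Hsp90ab1 and Hspa1b of these are not reported here), and up to 4 called genes per list; others are said to be chosen after their values were seen, or complete a family. Promoter motifs were searched with Python 3.11.15.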

Additional observations from a re-analysis of the deposited data

Results flagged for a closer look

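4 probes annotated to both Dnajb6 and the gene model Gm4247, which the comparisons did not use because they name 2 genes, were higher on all 4 ALA and SFA arrays than on both Control arrays. The mean of ALA and SFA minus Control was 0.1061, 0.1345, 0.1429 and 0.1423 on the log2 scale for the 4 probes, which lay between 9.44 and 9.74 on every array. These probes share a target and are not independent. The probe annotated to Dnajb6 alone was at 4.97 and 5.38 in Control, 5.47 and 5.19 in ALA and 5.34 and 4.38 in SFA.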

How the results depend on the processing

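Of the 8 member calls against Control, the 2 of Hspb1 passed under all 15 alternatives, and the other 6 were lost under some. In ALA against Control the count of 4 became 2 with no filter on dim probes, 1 with only the 2 groups compared, 2 with the replicate block, 6 with a mean signal of at least 6, 6 with a variance trend and robust prior, and 1 to 3 with 1 array left out. In SFA against Control the count of 4 became 2 with no filter and 1 to 5 with 1 array left out. The F test count of 5 became 2 with no filter, 2 with the replicate block, 6 with a variance trend and 1 to 3 with 1 array left out. ALA against SFA stayed at 0 throughout. Over the tested genes, samples with the same replicate number did not deviate together (correlations of -0.03, -0.004 and 0.023). Such correlations cannot show whether the samples were paired in a way that moved few genes. Over all genes the ALA count of 871 became 448 with only the 2 groups compared and 267 to 475 with a Control or ALA array or, at 448, an SFA array left out. The SFA count of 1512 became 245 to 735 with a Control or SFA array left out, and its 727 higher and 785 lower became 854 and 664 with cyclic loess. The ALA against SFA count of 168 became 0 with the replicate block or without ALA replicate 1, SFA replicate 1 or SFA replicate 2, 11 with a Control array left out or only the 2 groups compared, 36 without ALA replicate 2, 32 with no filter, 90 with quantile normalization, 293 with a mean signal of at least 6 and 421 with a variance trend. No named member's called difference changed sign. Beyond the smaller number of genes or arrays in some fits, the cause was not tested.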

Other observations

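Both probes annotated to Hspa8 together with the small nucleolar RNAs Snord14c and Snord14d, which lie in introns of that gene, differed from the probes of Hspa8 alone. The 2 shared probes gave nearly equal values, and the first was at 8.05 and 9.07 in Control, 8.24 and 7.76 in ALA and 7.01 and 6.81 in SFA. Its difference from Control was -0.56 in ALA and -1.65 in SFA, while the 3 probes of Hspa8 alone lay between -0.22 and -0.12 in SFA. The probe shared by Hspa1a and Hspa1b was at 6.96 and 7.04 in Control, 7.22 and 6.59 in ALA and 6.66 and 6.59 in SFA, with differences of -0.09 and -0.37. Its ALA duplicates were apart in the same direction as those of the probe of Hspa1a alone. These probes name several genes and were not tested.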
